A study of Mus musculus with 6 samples.

Results

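The interferon-stimulated antiviral genes examined here are 41 genes that cells switch on when type I interferon is sensed, taken by gene name from a table of 28154 genes measured in 4T1 cells. All 41 were present in the table and all 41 had enough counts to be tested. They comprise 24 effectors that act on viral RNA, proteins or membranes or that are induced beside them, 3 cytosolic RNA sensors, 4 genes of the transcriptional relay, 7 genes of ISG15 and ubiquitin conjugation and 3 mono-ADP-ribosyltransferases (PARPs). They lie on 15 chromosomes.

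4T1 is a mouse mammary carcinoma cell line, a transplantable model of metastatic breast cancer. Cells were treated with corticosterone, the main glucocorticoid of rodents (3 libraries), and the other cells were labelled control (3 libraries). All 6 libraries came from this 1 line, and no further agent or genetic change is named for either group. The sources used here give neither dose, time of treatment nor vehicle. They do not say whether each library was a culture of its own, so the spread behind the p-values may be technical. In bulk RNA of this kind, fewer expressing cells and less RNA per cell cannot be told apart.

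Type I interferons bind the receptor pair IFNAR1 and IFNAR2, whose kinases JAK1 and TYK2 phosphorylate STAT proteins. STAT2 and IRF9 are parts of the complex ISGF3, which binds the interferon-stimulated response element (ISRE) in the promoters of antiviral genes, and IRF7 adds a feed-forward arm by driving more interferon. Many epithelial and tumour cell lines transcribe these genes at a low level without added interferon. Glucocorticoids are known as suppressors of inflammatory gene expression.

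RefSeq promoter windows (build GRCm38.p6, 250 bases before to 50 after the start site) were held for 33 of the 41 members. The ISRE letters were searched as GAAA and GAAA with any 2 bases between them, on either strand and counting overlapping matches as separate. They occurred in a window of 15 of these 33 members (45.5%), against 3.99% of 27025 genes. The letters of the interferon-gamma element TTCNNNGAA were in 6 of 33 (18.2%, against 9.55% of all genes), and those of a glucocorticoid response element, GNACA and TGTNC with any 3 bases between them, in 0 of 33 (0.537% of all genes). The 200 bases before the start site are printed for 7 members chosen because all hold ISRE letters while their log2 fold changes with corticosterone ran from -0.83 (Ifitm2, printed at the top) to 0.26 (Rsad2, at the bottom), each read 5′ to 3′ on the gene's own strand, with ISRE letters in capitals.
Ifitm2: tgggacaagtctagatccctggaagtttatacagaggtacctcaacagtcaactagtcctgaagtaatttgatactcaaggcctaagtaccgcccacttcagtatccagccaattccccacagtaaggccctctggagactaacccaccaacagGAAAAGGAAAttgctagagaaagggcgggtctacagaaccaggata
Ifit3b: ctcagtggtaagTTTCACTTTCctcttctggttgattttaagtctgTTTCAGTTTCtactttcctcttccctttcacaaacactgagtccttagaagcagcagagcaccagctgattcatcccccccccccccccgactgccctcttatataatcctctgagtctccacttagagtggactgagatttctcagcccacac
Oas1a: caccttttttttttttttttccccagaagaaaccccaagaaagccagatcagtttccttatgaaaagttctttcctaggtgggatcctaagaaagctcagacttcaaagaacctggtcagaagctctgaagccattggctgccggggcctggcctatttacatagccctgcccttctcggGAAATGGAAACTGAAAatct
Ifit3: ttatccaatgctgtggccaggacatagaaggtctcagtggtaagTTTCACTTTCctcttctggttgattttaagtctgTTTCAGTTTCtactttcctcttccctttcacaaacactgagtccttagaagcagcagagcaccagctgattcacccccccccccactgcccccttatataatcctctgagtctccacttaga
Isg15: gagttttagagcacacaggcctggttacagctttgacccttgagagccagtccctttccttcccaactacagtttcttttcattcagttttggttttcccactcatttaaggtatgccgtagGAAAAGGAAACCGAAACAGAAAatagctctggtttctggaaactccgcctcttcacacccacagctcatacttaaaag
Ifit1: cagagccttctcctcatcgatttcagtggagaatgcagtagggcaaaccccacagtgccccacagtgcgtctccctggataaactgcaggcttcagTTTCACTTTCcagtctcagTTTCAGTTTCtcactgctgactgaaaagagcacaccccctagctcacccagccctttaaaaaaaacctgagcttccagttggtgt
Rsad2: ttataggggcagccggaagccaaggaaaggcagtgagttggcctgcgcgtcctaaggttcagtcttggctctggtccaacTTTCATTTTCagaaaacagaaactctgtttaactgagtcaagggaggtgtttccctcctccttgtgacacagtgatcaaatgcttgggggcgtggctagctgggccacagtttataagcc
The positions were Ifitm2 chr7:140955962-140956161 (- strand), Ifit3b chr19:34607757-34607956 (+ strand), Oas1a chr5:120907526-120907725 (- strand), Ifit3 chr19:34583329-34583528 (+ strand), Isg15 chr4:156200819-156201018 (- strand), Ifit1 chr19:34640689-34640888 (+ strand), Rsad2 chr12:26456453-26456652 (- strand). Ifit3b and Ifit3 held the same pair of elements, TTTCACTTTC and TTTCAGTTTC, and Ifit1 held this pair as well, at 104 and 85 bases before its start site. Isg15 held 3 overlapping matches and Oas1a 2.

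**Figure D1:**
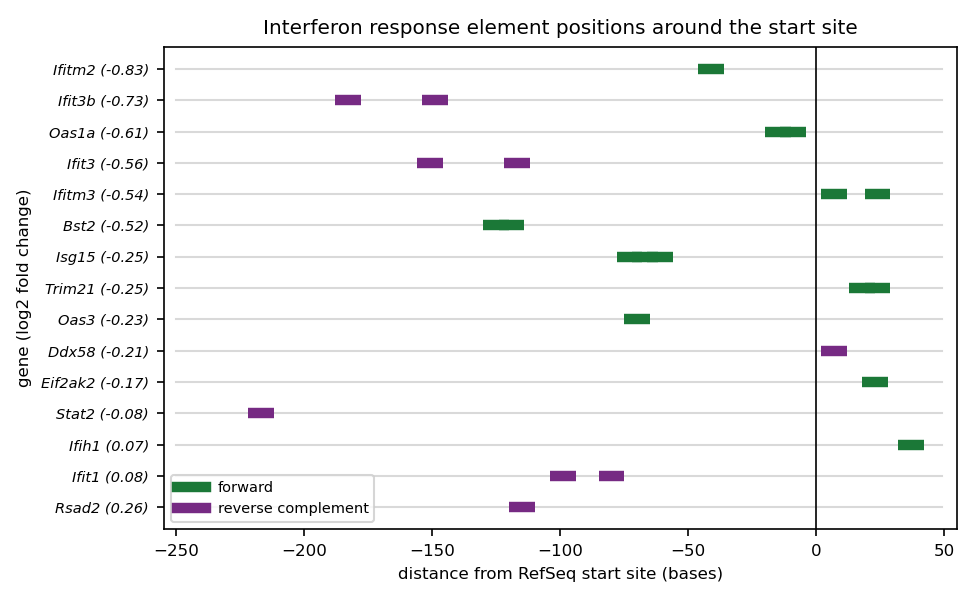
Positions of the ISRE letters in the RefSeq windows of the 15 members that hold them, as distance from the start site in bases (horizontal axis), with genes ordered from the most negative log2 fold change at the top (value in brackets). Green marks the forward letters and purple their reverse complement. The order runs from Ifitm2 (-0.83), with its element starting 46 bases before the start site, to Rsad2 (0.26), with its element starting 120 bases before it.

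With corticosterone, 10 of the 41 members fell and 0 rose (edgeR quasi-likelihood test, Benjamini-Hochberg adjusted p under 0.05 over all 17283 tested genes), that is 24.4% of the members against 1.46% of all tested genes lower and 1.35% higher. The 10 were Uba7, Ifi44, Lgals3bp, Ifit3b, Ifitm2, Parp9, Ube2l6, Irf9, Xaf1 and Oas1a. The median log2 fold change of the members was -0.33, against 0.00 over all tested genes, and 36 of the 41 values were below 0. The words rose, fell and passed refer to this test. At an unadjusted p under 0.05, 28 members were lower and 2 higher, against 8.80% and 8.23% of all tested genes. DESeq2 called 19 lower and 1 higher (4.06% and 4.04% of the genes it tested), and limma on log2(FPKM + 1) called 7 lower and 0 higher (1.36% and 1.08%), without Irf9, Oas1a and Xaf1. With no filter on low counts edgeR called 1 member, Uba7 (0.352% of 28154 genes lower), and with the replicate number as a block it called 7 (0.619%). At an adjusted p under 0.01 it called 1 (0.347%), and under 0.1 it called 16 (2.68%). In 22 members every corticosterone library was below every control library (11.6% of all tested genes), and in 2, Oasl1 and Rsad2, every corticosterone library was above (10.6% of all tested genes).

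**Figure D2:**
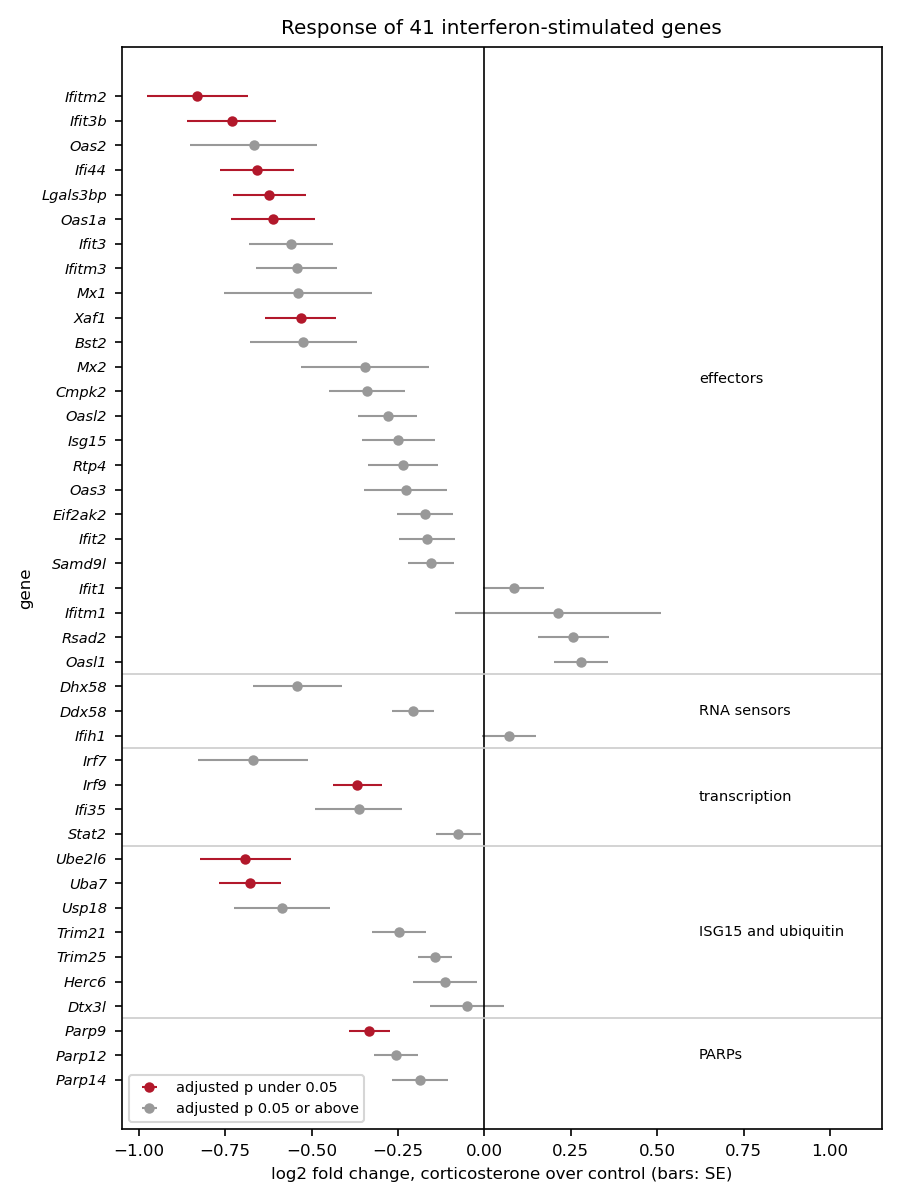
Log2 fold change of corticosterone over control for each of the 41 members (points, with bars for the SE; 3 libraries a group), grouped by role and ordered by value. The 10 members in red passed in edgeR, all with negative values, and the 5 members right of 0 did not pass in edgeR, though DESeq2 called Oasl1 among them (DESeq2, adjusted p = 0.022).

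The controls themselves were not level for these genes. The mean log2 level of the members, set to 0 at the mean of the controls, was -0.36, -0.26 and -0.37 in corticosterone replicates 1, 2 and 3, against -0.15, 0.07 and 0.09 in control replicates 1, 2 and 3. Control replicate 1 was thus the control nearest to the treated cells, and it was the lowest control for 34 of the 41 members (82.9%, against 36.6% of all tested genes). All 3 corticosterone libraries were below control replicate 1 in 23 members (56.1%, against 24.5% of all tested genes), and below control replicate 2 and below control replicate 3 in 34 members each (82.9%, against 25.8% and 26.8%). The range among controls had a median of 0.28 log2 units over the members and 0.20 over all tested genes. The range among corticosterone libraries had a median of 0.26 over the members and 0.32 over all tested genes, which include many genes of low level. Of the members, 39 had a mean log2 CPM above 2. Over the 11083 genes above that level, the median range was 0.13 among controls and 0.23 among corticosterone libraries, both narrower than over the members. Members with a wider control range had the more negative fold changes (Spearman rho -0.48 over 41 members, a description, since both values share the control libraries). Summed over the members, the level was 1920, 2000 and 1870 CPM (counts scaled to a common library size, with TMM factors) in corticosterone replicates 1, 2 and 3, against 2180, 2470 and 2520 CPM in control replicates 1, 2 and 3.

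**Figure D3:**
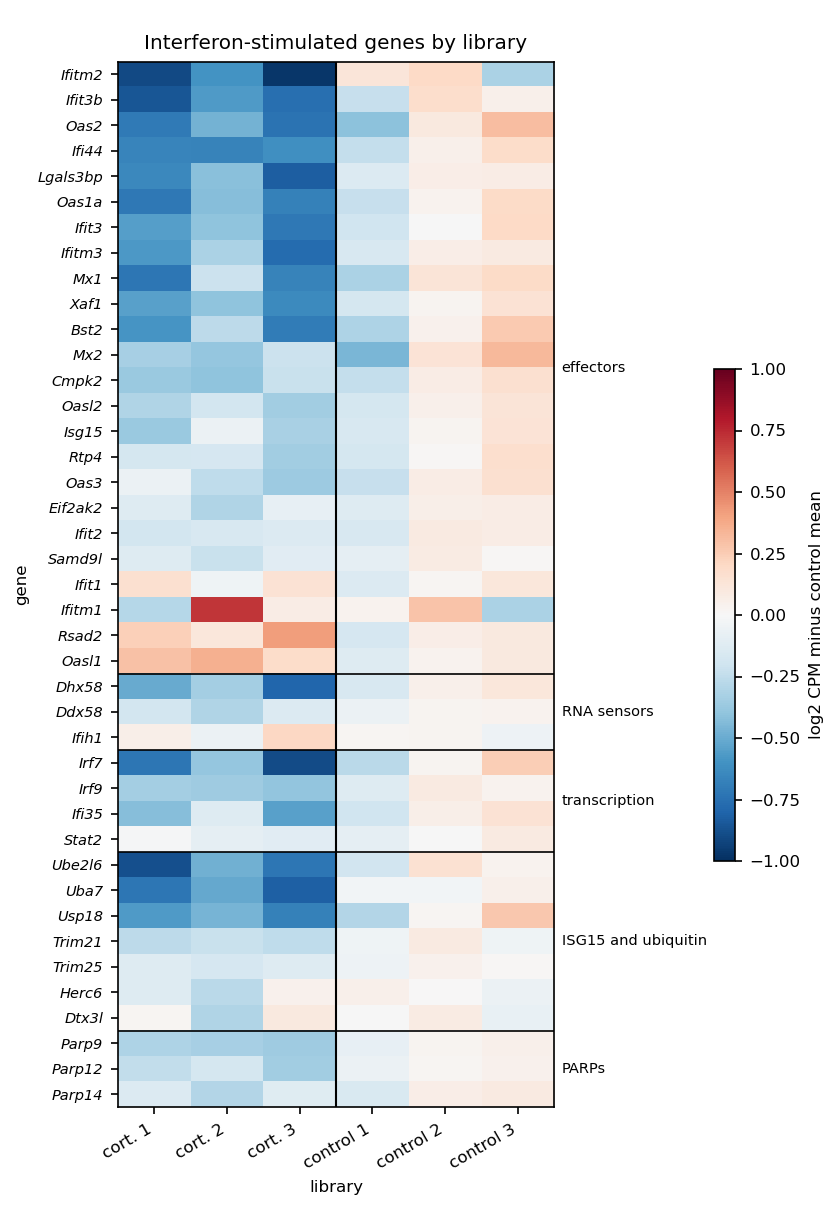
Log2 CPM of each member in each library minus its mean over the controls (colour), with the corticosterone (cort.) libraries on the left and the control libraries on the right, and genes grouped by role. The left columns are blue for most members, and control replicate 1 is bluer than control replicates 2 and 3 (means of -0.15, 0.07 and 0.09).

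Which members passed depended on the libraries used, as did the number of calls over all genes. Without corticosterone replicate 1 edgeR called 0 members (0.284% of all tested genes lower), and without control replicate 2 also 0 (0.174% lower), with 23 and 20 members lower at an unadjusted p under 0.05, beside 6.08% and 5.67% of all tested genes in those fits. Without corticosterone replicate 3 and without control replicate 3 edgeR called 2 members each (0.665% and 0.341% of all tested genes lower), and without control replicate 1 it called 9 (0.509%). Corticosterone replicate 2 had the highest mean level of these genes among the treated libraries, and it also stood apart over all genes, with a chi-square per degree of freedom of 42.5 and 66.9 against corticosterone replicates 1 and 3, where the other pairs of a group had 8.75 to 15.2. Without it 23 members fell and 2 rose, against 10.5% and 11.2% of all tested genes. In each of these 6 fits 36 members had negative log2 fold changes, and the median of the members lay between -0.37 and -0.26.

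**Figure D4:**
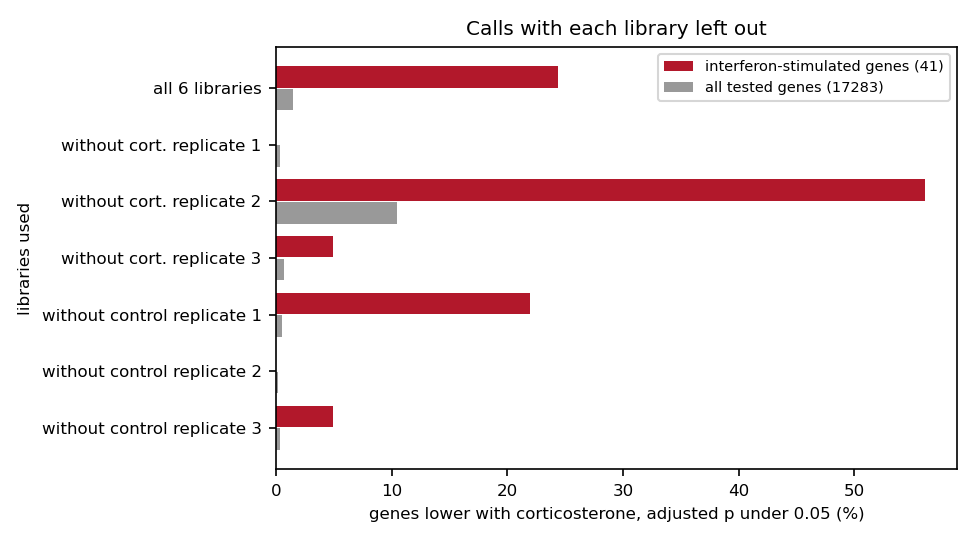
Share of the 41 members (red) and of the 17283 tested genes (grey) that were lower with corticosterone at an adjusted p under 0.05, with all 6 libraries and with each library left out. The red share runs from 0% without corticosterone replicate 1 or control replicate 2 to 56.1% without corticosterone replicate 2.

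The effectors included the largest changes. Ifitm2, a membrane protein that restricts viral entry, had 48.5, 59.9 and 46.2 CPM in corticosterone replicates 1, 2 and 3, against 98.6, 104 and 72.6 CPM in control replicates 1, 2 and 3. All treated libraries were below all controls, and here it was control replicate 3 that was lowest among the controls. Ifitm2 fell by 0.83 on the log2 scale (SE 0.146; edgeR, adjusted p = 0.0241). The call was lost without corticosterone replicate 1 or 3 or control replicate 1 or 2, with an adjusted p up to 0.131 (edgeR, without corticosterone replicate 1), and 42.0% of its 75-base stretches also occur in other genes. Ifitm3, the best studied restriction factor of the family and the most abundant member per length, had 175 ± 25.1 FPKM (a level per transcript length) with corticosterone and 254 ± 23.4 FPKM in controls (SD, n = 3). Its log2 fold change of -0.54 missed the threshold (edgeR, adjusted p = 0.0504), and it passed without corticosterone replicate 2 (edgeR, adjusted p = 0.00113). Ifitm1 was near the lower end, with 67, 141 and 90 counts with corticosterone and 85, 104 and 68 counts in controls, and the groups overlapped.

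The Ifit genes, whose products bind viral RNA ends, sit side by side on chromosome 19 (from 34550694 for Ifit2 to 34650009 for Ifit1, GRCm38), and their log2 fold changes ran from -0.73 to 0.08. Ifit3b had 8.91, 10.9 and 9.55 CPM with corticosterone, against 13.7, 18.2 and 16.7 CPM in controls, and fell by 0.73 on the log2 scale (SE 0.128; edgeR, adjusted p = 0.0238, up to 0.128 without corticosterone replicate 1). Its call was lost without corticosterone replicate 1 or 3 or control replicate 2 or 3. Ifit3, its near copy, had 15.0, 16.6 and 13.4 CPM with corticosterone, against 19.2, 21.9 and 25.2 CPM in controls, also without overlap, with a log2 fold change of -0.56 (SE 0.122; edgeR, adjusted p = 0.0545). Of the stretches of 75 bases in the longest transcript of Ifit3b, 35.7% occur in Ifit3 as well, so the split of reads between the pair is uncertain. Ifit1 had 51.6, 44.8 and 51.0 CPM with corticosterone, against 42.0, 47.0 and 50.1 CPM in controls, and these values overlapped (log2 fold change 0.08, SE 0.088). Ifit2 had 35.2, 35.8 and 36.3 CPM with corticosterone, against 35.8, 42.5 and 42.1 CPM in controls, with overlap (log2 fold change -0.17, not called).

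Neighbouring members were also set against each other within each library, as a description. No p-value is given, since the 12 pairs were chosen after their values were seen. In 8 of the 12 the groups did not overlap, but several pairs share a member, and the share over other neighbouring genes was not computed. The log2 ratio of Ifit1 to Ifit3b was 2.33 ± 0.26 with corticosterone and 1.52 ± 0.14 in controls (SD, n = 3). That of Rsad2 to Cmpk2, adjacent on chromosome 12, was 0.40 ± 0.06 with corticosterone and -0.19 ± 0.07 in controls. That of Oasl1 to Oasl2, adjacent on chromosome 5, was -0.84 ± 0.03 with corticosterone and -1.40 ± 0.04 in controls. The groups overlapped in the ratio of Oas1a to Oas2, on the same chromosome, with 2.42 ± 0.04 with corticosterone and 2.38 ± 0.16 in controls.

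Among the oligoadenylate synthetases, which make the messenger that activates RNase L, Oas1a had 27.9, 34.2 and 28.7 CPM with corticosterone, against 39.1, 47.0 and 52.5 CPM in controls. The groups did not overlap, and Oas1a fell by 0.61 on the log2 scale (SE 0.122; edgeR, adjusted p = 0.0396). The call was lost without corticosterone replicate 1 or 3 or control replicate 2 or 3, with an adjusted p up to 0.181 (edgeR, without corticosterone replicate 1), and 47.6% of its 75-base stretches also occur in Oas1g. Oas2 had 5.35, 6.30 and 5.25 CPM with corticosterone, against 6.60, 9.36 and 10.9 CPM in controls, without overlap, and its difference of -0.67 log2 units missed the threshold (edgeR, adjusted p = 0.113). Its controls spread over 0.72 log2 units, and those of Mx2 over 0.78. Oas3 had 25.8 ± 2.85 CPM with corticosterone and 30.2 ± 4.11 CPM in controls, with overlap.

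Oasl1, which represses the translation of IRF7 in mice, and Rsad2 (viperin), an enzyme that makes a chain-terminating nucleotide, stood on the other side. Oasl1 had 73.5, 76.8 and 68.2 CPM with corticosterone, against 54.7, 61.4 and 64.0 CPM in controls, and the groups did not overlap. Its log2 fold change was 0.28 (SE 0.077; edgeR, adjusted p = 0.113, and 0.0407 without corticosterone replicate 2). Rsad2 had 39.4, 36.1 and 44.6 CPM with corticosterone, against 29.8, 35.0 and 35.8 CPM in controls, also without overlap, with a log2 fold change of 0.26 (SE 0.103; edgeR, adjusted p = 0.26, and 0.0341 without corticosterone replicate 2). Exons of Oasl1 overlap a gene on the opposite strand. Oasl2 had a log2 fold change of -0.28 and Cmpk2, a mitochondrial nucleotide kinase, one of -0.34, and neither passed in edgeR (DESeq2, adjusted p = 0.0403 for Oasl2 and 0.0527 for Cmpk2).

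Ifi44, Lgals3bp and Xaf1, effectors of other kinds, also fell. Ifi44 had 24.5, 24.3 and 25.2 CPM with corticosterone, against 32.7, 40.1 and 44.0 CPM in controls, so the treated libraries were close together and all below the controls. It fell by 0.66 on the log2 scale (SE 0.108; edgeR, adjusted p = 0.0187, up to 0.11 without control replicate 2). Lgals3bp, a secreted glycoprotein that binds galectins, had 84.1, 98.4 and 74.0 CPM with corticosterone, against 119, 137 and 138 CPM in controls, and fell by 0.62 (SE 0.106; edgeR, adjusted p = 0.0219, up to 0.123 without control replicate 2). Xaf1, a proapoptotic partner of XIAP, had 19.2, 21.1 and 18.0 CPM with corticosterone, against 24.8, 28.6 and 30.9 CPM in controls, and fell by 0.53 (SE 0.103; edgeR, adjusted p = 0.0355, up to 0.174 without control replicate 2). The groups did not overlap in any of them. All 3 calls were lost without corticosterone replicate 1, without control replicate 2 and without control replicate 3, those of Ifi44 and Xaf1 also without corticosterone replicate 3, and that of Xaf1 also under the replicate block.

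The other effectors did not pass in edgeR, and DESeq2 called some of them, Bst2 among these (DESeq2, adjusted p = 0.00596). Bst2 (tetherin), which holds budding virions at the cell surface, was second in level per length, with 92.4 ± 13.5 FPKM with corticosterone and 132 ± 25.3 FPKM in controls, not beyond the spread from Ifitm2 (69.7 ± 8.76 and 124 ± 23.1 FPKM) in controls. Its groups overlapped at one point, with 112 CPM in corticosterone replicate 2 and 108 CPM in control replicate 1. Isg15, the ubiquitin-like modifier itself, had 43.8, 54.5 and 45.2 CPM with corticosterone, against 50.8, 57.7 and 62.1 CPM in controls, with overlap. Mx1 and Mx2, GTPases that trap viral nucleocapsids and are defective in many inbred mice, had 1.87 ± 0.383 and 8.50 ± 0.531 CPM with corticosterone, against 2.73 ± 0.498 and 10.8 ± 2.84 CPM in controls. The RNA-activated kinase Eif2ak2 (PKR), Samd9l and Rtp4 had log2 fold changes of -0.17, -0.15 and -0.24.

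**Figure D5:**
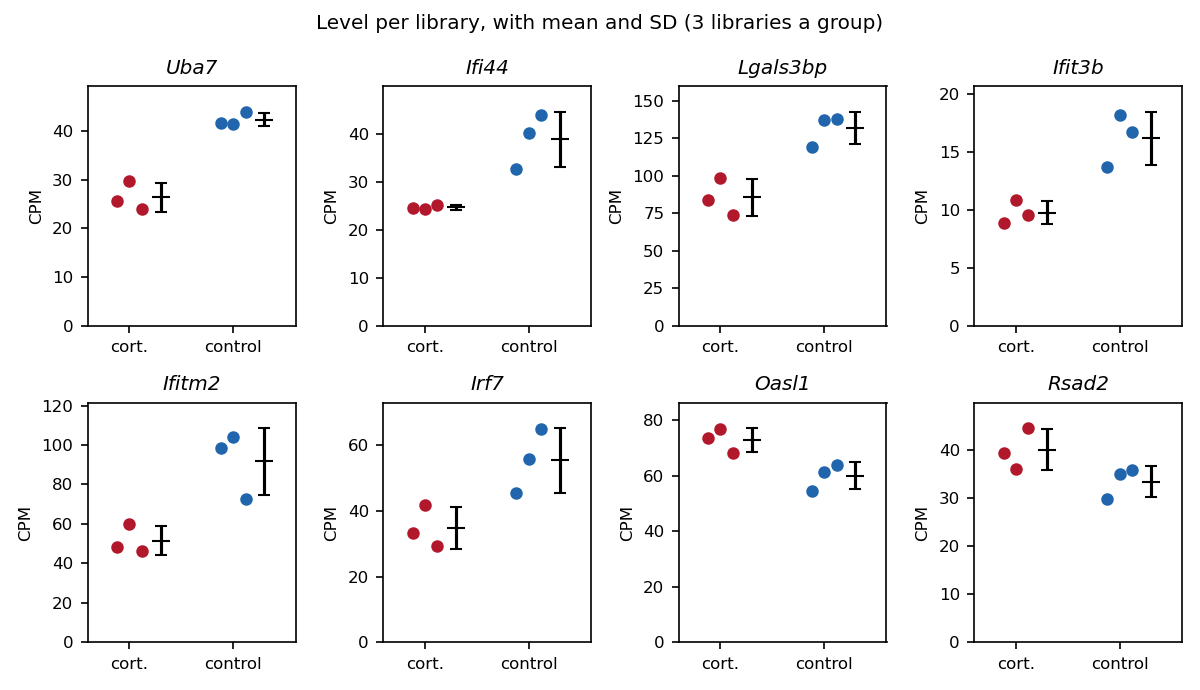
CPM of 8 members in each library (dots; corticosterone, cort., in red and control in blue), with the group mean and SD beside them (3 libraries a group). In Uba7 the 3 controls lie within 41.4 to 43.9 CPM and the treated libraries within 24.0 to 29.7 CPM. In Irf7 the controls run from 45.3 to 64.9 CPM. In Oasl1 and Rsad2 every corticosterone library is above every control, as in 10.6% of all tested genes, and neither passed in edgeR.

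Of the 7 genes of ISG15 and ubiquitin conjugation, 2 fell, beside 1.46% of all tested genes. Uba7, the enzyme that activates ISG15, had 25.6, 29.7 and 24.0 CPM with corticosterone, against 41.6, 41.4 and 43.9 CPM in controls. It fell by 0.68 on the log2 scale (SE 0.0899; edgeR, adjusted p = 0.00761), the lowest p among the members, and its controls spread over 0.08 log2 units. Its call was lost without corticosterone replicate 1 and without control replicate 2 (edgeR, adjusted p up to 0.0589) and was made in the other 4 fits that leave out a library. Ube2l6, which conjugates ISG15, had 8.72, 11.5 and 9.76 CPM with corticosterone, against 14.1, 17.9 and 16.5 CPM in controls, and fell by 0.69 (SE 0.132; edgeR, adjusted p = 0.0322). That call was made without corticosterone replicate 2 and in none of the other 5 fits (edgeR, adjusted p up to 0.168, without control replicate 2). Usp18, which removes ISG15 and blocks signalling at IFNAR2, had 13.6, 14.6 and 12.6 CPM with corticosterone, against 16.5, 20.5 and 24.3 CPM in controls, without overlap, and its difference of -0.59 log2 units missed the threshold (edgeR, adjusted p = 0.072). Herc6, the ISG15 ligase of mice, had 26.5 ± 2.95 CPM with corticosterone and 28.7 ± 1.04 CPM in controls, with overlap. Trim25 and Trim21, ubiquitin ligases of RNA sensing and of antibody-coated virus, had log2 fold changes of -0.14 and -0.25, in both cases without overlap but not passing, and Dtx3l, the ligase partner of PARP9, one of -0.05.

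In the transcriptional relay, Irf9 had 48.4, 48.0 and 46.7 CPM with corticosterone, against 56.2, 65.3 and 63.1 CPM in controls, without overlap. Irf9 fell by 0.37 on the log2 scale (SE 0.0706; edgeR, adjusted p = 0.034), a call lost without corticosterone replicate 1 or 3 or control replicate 2 or 3 (edgeR, adjusted p up to 0.188, without control replicate 2) and under the replicate block. Stat2, its partner in ISGF3, had 70.7, 66.9 and 65.8 CPM with corticosterone, against 67.1, 71.2 and 76.1 CPM in controls, and these overlapped (log2 fold change -0.08, SE 0.0654). Irf7 had 33.1, 41.8 and 29.3 CPM with corticosterone, against 45.3, 55.6 and 64.9 CPM in controls, without overlap. Its log2 fold change of -0.67 was larger than that of Irf9 but did not pass (SE 0.158; edgeR, adjusted p = 0.0692, and 0.0035 without corticosterone replicate 2). Ifi35, which binds the STAT partner NMI, had a log2 fold change of -0.36 with overlap.

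Of the 3 RNA sensors edgeR called 0, DESeq2 1 lower (Dhx58, beside 4.06% of the genes it tested) and limma 0. At an unadjusted p under 0.05 were 2 of the 3, beside 17.0% of all tested genes. Dhx58 (LGP2), a regulator of the other sensors, had 12.2, 13.6 and 9.98 CPM with corticosterone, against 15.4, 17.9 and 18.7 CPM in controls, without overlap, and a log2 fold change of -0.54 (SE 0.13; edgeR, adjusted p = 0.0739). Ddx58 (RIG-I) had 91.9 ± 5.41 CPM with corticosterone and 106 ± 3.64 CPM in controls, without overlap (log2 fold change -0.21). Ifih1 (MDA5) had 54.2 ± 5.10 CPM with corticosterone and 51.6 ± 1.46 CPM in controls, with overlap (log2 fold change 0.07).

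The PARPs of the interferon response had log2 fold changes between -0.33 and -0.19. Parp9 had 57.9, 56.7 and 55.9 CPM with corticosterone, against 67.4, 73.1 and 74.3 CPM in controls, so neither group was wide and they did not overlap. Parp9 fell by 0.33 on the log2 scale (SE 0.0599; edgeR, adjusted p = 0.0261). Its call was lost in each fit that leaves out a library other than corticosterone replicate 2 (edgeR, adjusted p up to 0.164, without control replicate 2) and under the replicate block. Parp9 and Dtx3l are transcribed from overlapping exons on opposite strands of chromosome 16, which leaves reads in the overlap uncertain. Parp12 and Parp14 had log2 fold changes of -0.26 and -0.19, neither called by edgeR, while DESeq2 called Parp12 (DESeq2, adjusted p = 0.012).

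Exons of 8 members (Oasl1, Eif2ak2, Dhx58, Irf7, Ifi35, Usp18, Dtx3l and Parp9) overlap a gene on the opposite strand in GENCODE M21, and their counts are uncertain, since no source used here says whether strand was kept. Exons of 6 (Rtp4, Ifitm2, Irf9, Uba7, Herc6 and Parp14) overlap a gene on the same strand. In 6 (Ifit3, Ifit3b, Oas1a, Rtp4, Ifitm2 and Herc6) over 10% of the 75-base stretches of the longest transcript occur in another gene. Of the 10 members that fell, Ifi44, Lgals3bp, Ube2l6 and Xaf1 are in none of these sets.

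By promoter, 3 of the 15 members with ISRE letters fell (median log2 fold change -0.25, from -0.83 to 0.26), as did 6 of the 18 members without them (median -0.31, from -0.69 to 0.28) and 1 of the 8 members with no window, beside 1.46% of all tested genes. Members with the letters were found on both sides of 0: Ifit1 and Ifit3b, with the same letters, had values of 0.08 and -0.73. A match to letters in this window is a description and not a measured binding site.

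Upstream of the members, 8 of 21 interferon ligand genes looked up were in the table, and the transcripts of these 8 were scarce. The others have no values here. Ifnb1 had 11, 4 and 3 counts in corticosterone replicates 1, 2 and 3, against 0, 4 and 13 counts in control replicates 1, 2 and 3, and was too low to be tested. Ifnz had 16, 8 and 9 counts with corticosterone, against 11, 13 and 16 counts in controls. Of the other 6 ligand genes in the table (Ifnab, Ifne, Ifnk, Ifnl2, Ifnl3 and Ifng) none had more than 4 counts in a library. Over all these ligands no order of the groups can be read at this depth.

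Of 13 tested receptor, kinase and factor genes of interferon signalling, 1 fell and 0 rose in edgeR, beside 1.46% and 1.35% of all tested genes. At an unadjusted p under 0.05 were 4 of the 13, beside 17.0% of all tested genes. DESeq2 called 2 lower (4.06% of the genes it tested) and limma 0. Jak2, a kinase of the interferon-gamma receptor, had 78.7, 73.5 and 78.7 CPM with corticosterone, against 98.0, 97.4 and 91.4 CPM in controls. It fell by 0.31 on the log2 scale (SE 0.0577, edgeR, adjusted p = 0.0291). Its call was made without corticosterone replicate 2 and in none of the other 5 fits (adjusted p up to 0.178 in edgeR, without control replicate 2), and was lost under the replicate block. The receptor chains had log2 fold changes of 0.03 (Ifnar1), 0.01 (Ifnar2), -0.07 (Ifngr1), -0.16 (Ifngr2) and 0.06 (Ifnlr1 and Il10rb), and Jak1, Tyk2, Stat3, Irf1 and Irf2 values of 0.15, 0.09, 0.06, -0.25 and 0.13. None of these passed.

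Of 15 tested genes that sense nucleic acid or relay it to interferon (such as Tlr3, Mavs, Tbk1 and Irf3), edgeR called 0, DESeq2 1 lower (4.06% of the genes it tested) and limma 0, with 2 at an unadjusted p under 0.05, where 17.0% of all tested genes were. Of 14 tested inhibitors and regulators (such as Socs1, Adar and Ptpn1), edgeR, DESeq2 and limma called 0 each, with 5 at an unadjusted p under 0.05. Their median log2 fold changes were -0.03 and -0.07.

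Of 72 tested interferon-stimulated genes outside the 41, 17 fell and 1 rose in edgeR, with a median log2 fold change of -0.26, beside 1.46% and 1.35% of all tested genes. Zbp1, a sensor of Z-form nucleic acid, had 7.31 ± 0.55 CPM with corticosterone and 15.2 ± 2.97 CPM in controls (SD, n = 3), and fell by 1.05 on the log2 scale (SE 0.15; edgeR, adjusted p = 0.0104). That call was lost without corticosterone replicate 1 and without control replicate 2 (edgeR, adjusted p up to 0.0715). The GTPase genes Ifi47 and Irgm1 fell by 0.78 and 0.46 (adjusted p = 0.00689 and 0.0106 in edgeR), and both calls were lost without control replicate 2 (0.0557 and 0.0853), that of Irgm1 also without corticosterone replicate 1 or control replicate 3. The gene that rose was Ifi207, of the HIN-200 family, by 0.98 (edgeR, adjusted p = 0.0177), a call made in 2 of the 6 fits that leave out a library (up to 0.107 without control replicate 2). The same libraries and controls stand behind these values and those of the members.

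As checks on the libraries, total counts ran from 62175495 to 66249288 with corticosterone and from 63398404 to 65915866 in controls. The glucocorticoid targets Per1, Tsc22d3, Klf9, Sgk1 and Fkbp5 rose (edgeR; log2 fold changes of 0.77 to 1.75, every corticosterone library above every control), and the receptor gene Nr3c1 did not pass. Epithelial markers were abundant, with Epcam at 237 ± 7.58 CPM with corticosterone and 250 ± 6.17 CPM in controls and Krt8 at 953 ± 120 and 949 ± 23.9 CPM (SD, n = 3). Of 8 tested, edgeR called 0, DESeq2 1 lower (4.06% of the genes it tested) and limma 0. At an unadjusted p under 0.05 were 3, beside 17.0% of all tested genes. The 8 leukocyte markers summed to 9.37 to 10.9 CPM with corticosterone and 9.06 to 10.1 CPM in controls. Of 3 tested, edgeR, DESeq2 and limma called 0 each, with 0 at an unadjusted p under 0.05. Cd3d and Nkg7, too low to be tested, had 0 counts in every treated library but not in every control. The 9 macrophage and dendritic cell markers, Bst2 among them, summed to 344 to 427 CPM with corticosterone and 384 to 417 CPM in controls, and the 9 fibroblast and endothelial markers to 150 to 155 and 142 to 160 CPM. Of the 16 tested in these last lists edgeR called 0, DESeq2 1 lower (Bst2, beside 4.06% of the genes it tested) and limma 0. At an unadjusted p under 0.05 were 2 of the 16, beside 17.0% of all tested genes.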

How the data were processed

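RNA of 6 libraries of 4T1 cells was sequenced, 3 treated with corticosterone and 3 controls, grouped by the treatment label with replicate numbers from the titles. The deposited table has columns headed count and FPKM for each library. The counts are whole numbers and are reported to be raw. The FPKM values were scaled by the authors to transcript length and depth. The sources used here do not give the aligner, counter, strandedness or read layout. The submitters' processing notes name GRCh38, but the gene identifiers are of mouse. The gene coordinates printed are those of the table, and the promoter positions are those of the RefSeq windows. Of the 41 members, 41 were found in GENCODE M21 (GRCm38), 36 with identical coordinates. No value column was left unmapped (0).

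Counts were filtered with filterByExpr (minimum count 10, minimum total 15), scaled by TMM and tested in edgeR 4.0.16 (R 4.3.3) by quasi-likelihood with group as the only factor. Benjamini-Hochberg adjustment ran over 17283 genes, and only those with an adjusted p under 0.05 are called risen or fallen. SE is the log2 fold change over the root of the F statistic. Level ranges are of log2 CPM with a prior count of 2. Alternatives were DESeq2 1.42.0, its median ratio size factors, limma 3.58.1 on log2(FPKM + 1) and log2(FPKM + 0.1), other filters and thresholds, the replicate block and each library left out. Fits were also run on simulated counts, drawn with the same spread for every library, so an outlying library was not covered. Deviations of same-numbered libraries from their group means were hardly related (correlations 0.01, 0.04 and -0.09), and the libraries were left unpaired. Libraries of a group differed beyond counting noise (chi-square of 8.75 to 66.9 per degree of freedom). The members and lists, and the rule that all members may be named and up to 8 genes of each further list by lowest p, were chosen with earlier results of these data known. Library totals were 62175495 to 66249288 counts. The value of 1 gene of the signalling list is not reported here.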

Additional observations from a re-analysis of the deposited data

How the results depend on the processing

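With all 6 libraries edgeR called 487 genes, 10 members lower and 0 higher, and 18 of 113 further genes of the interferon lists lower. DESeq2 called 1131 genes, 19 members lower and 1 higher, and 34 further genes lower. With no filter on low counts these were 211 genes, 1 member and 5 further genes lower, among 28154 genes tested. At an adjusted p under 0.01 they were 144, 1 and 2, and under 0.1 889, 16 and 29. The replicate block left 237 genes called, 7 members lower (the calls of Irf9, Parp9 and Xaf1 were lost) and 14 further genes lower; the libraries share only a number. Leaving out each library in turn gave 92 to 3750 genes, 0 to 23 members lower, 0 to 2 higher and 0 to 42 further genes lower. The cause of these differences was not tested. Those fits also held fewer libraries. Members without overlap and lower with corticosterone numbered 22 to 34 without 1 library (14.5% to 25.8% of all tested genes, and 16.4% without control replicate 1, where the members were 34) and 22 under each other scaling, filter and pseudocount tried (8.53% to 13.4%). The median log2 fold change of the members stayed between -0.37 and -0.24 over all these fits. Leaving out 1 library gave log2 fold changes of -0.116 to 0.417 for Ifitm1 and -0.129 to 0.060 for Dtx3l, with the sign opposite to that of all 6 libraries without corticosterone replicate 2, and neither passed. The floor of 3 counts covers counting error only, while SE and SD include the spread between libraries. Most interferon ligands were at or near that floor, but Ifnz was above it in every library and Ifnb1 in some.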
